A study of Mus musculus with 69 samples.

Results

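Single cells whose titles carry the letter D were compared with single cells whose titles carry the letter C, 7 cells against 7, across all genes on the array. The letter after the word cell in the title chose the members, 14 of the 69 cells analysed here, and no expression value entered that choice. The study picked cells of the cerebral wall of mouse embryos, amplified the RNA of 102 of them and put 70 on whole-genome Affymetrix arrays. All 14 cells came from CD1 mice at embryonic day 14, from the ventricular and subventricular zones (VZ/SVZ) of the dorso-lateral wall of the dorsal forebrain. The tissue was loosened with trypsin, and single cells were taken up by hand with a glass capillary into lysis buffer that held 4 bacterial spike RNAs. No treatment, genotype or sort separates the groups, whose titles differ in the letter and in a number. No title number occurs in both groups, so the letter and what the number stands for cannot be told apart. The labels do not say what the letter stands for or whether expression helped to assign it. They name no animal or litter either, so each letter counts as 1 sample and its cells are not replicates. No difference given here has a p-value, and each holds for these 14 cells alone.

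In the embryonic cortex, apical progenitors line the ventricle and divide there, and many of their daughters become intermediate progenitors, which lose contact with the ventricle, switch on the T-box factor Eomes and divide in the subventricular zone, mostly into neurons. Newborn neurons leave the cell cycle, switch off Eomes, build axons from tubulins, stathmins and adhesion molecules, and migrate outward to the cortical plate. The working name of the comparison is the step from intermediate progenitor to newborn neuron. No lineage was traced, so the name was set against marker genes only.

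Values are log2 intensities, called log2 signal. Over all cells they fell into a low and a high mode, and the lowest point between the modes, 5.85 on the log2 scale (an intensity of 57.7), served as the floor. Lower values were set to it, and a gene is called found in a cell where it lay above it. Between 4038 and 5480 genes were found per C cell (median 4612) and between 3719 and 4816 per D cell (median 4125), and the median difference, D minus C, over the 7360 genes found in at least 3 of the 14 cells was -0.18. The spike added at 1000 copies per cell read 12.28 ± 0.27 in C and 12.46 ± 0.20 in D (mean ± SD over 7 cells), and the one added at 20 copies read 9.45 ± 0.68 and 10.02 ± 1.07. Correlations over detected genes were computed on log2 intensities without the floor. They ranged from 0.330 to 0.444 between C cells and from 0.370 to 0.424 between D cells. Between a C and a D cell they ranged from 0.238 to 0.348. None of the markers of interneurons, microglia, erythroid cells or oligodendrocyte precursors (12, 10, 8 and 7 with a probe set) was found in any of the 14 cells. Of the 10 markers of pericytes and meninges 1 was found, in C cell 7 alone, and of the 10 of Cajal-Retzius cells 1 was found in each of 3 C cells and none in a D cell. Of the 10 endothelial markers Mfsd2a was found in 2 C and 5 D cells and Egfl7 in 1 C cell, while Cdh5, Pecam1, Cldn5 and the other 5 were at the floor in all 14 cells.

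C cell 7 stood apart from the other C cells, and 5 of the 7 D cells share the title number 18. C cell 7 held 1 of the 27 measured G2/M genes, where the other C cells held 25 to 27, but 14 of 24 S phase genes. Its intermediate progenitor genes were on: log2 signal in it was 10.45 for Eomes and 12.41 for Neurog2. It was the lowest C cell for 12 of the 15 genes lowest in D, so the cell cycle lists and several of the genes it was low in are also given without it. The title number 18 occurs in D cells 1 to 5 and in no other cell of the series, and what it stands for is not given. Xist, the X-inactivation RNA of female cells, was found in 5 of 7 C cells, in 0 of these 5 D cells and in 1 of the other 2. The Y-linked genes Eif2s3y and Kdm5d were each found in 1 of 7 C cells and in 2 of these 5 D cells, and Eif2s3y and Uty each in 1 of the other 2. The part of the title number in the differences was not tested, but the values from D cells 6 and 7 alone are given where they matter.

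By a size rule of at least 2 log2 units, a 4-fold difference, 175 genes were higher in D (2.38% of those tested) and 393 were lower (5.34%). All 7 D cells lay above all 7 C cells for 42 genes (0.571%), and all 7 C cells above all 7 D cells for 86 (1.17%). For 6 of the 42 and 18 of the 86 this order rested on at least 1 value under the floor of a cell in the higher group, where order means little, which leaves 36 and 68. Without C cell 7 the genes with all C cells above all D cells numbered 170. With D cells 6 and 7 alone, 440 genes were higher by the size rule and 559 lower, and with the D cells of title number 18 alone 190 and 460. A mean over fewer cells varies more, so these counts do not compare like with like. The plot of mean signals shows both groups of genes against the diagonal.

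**Figure D1:**
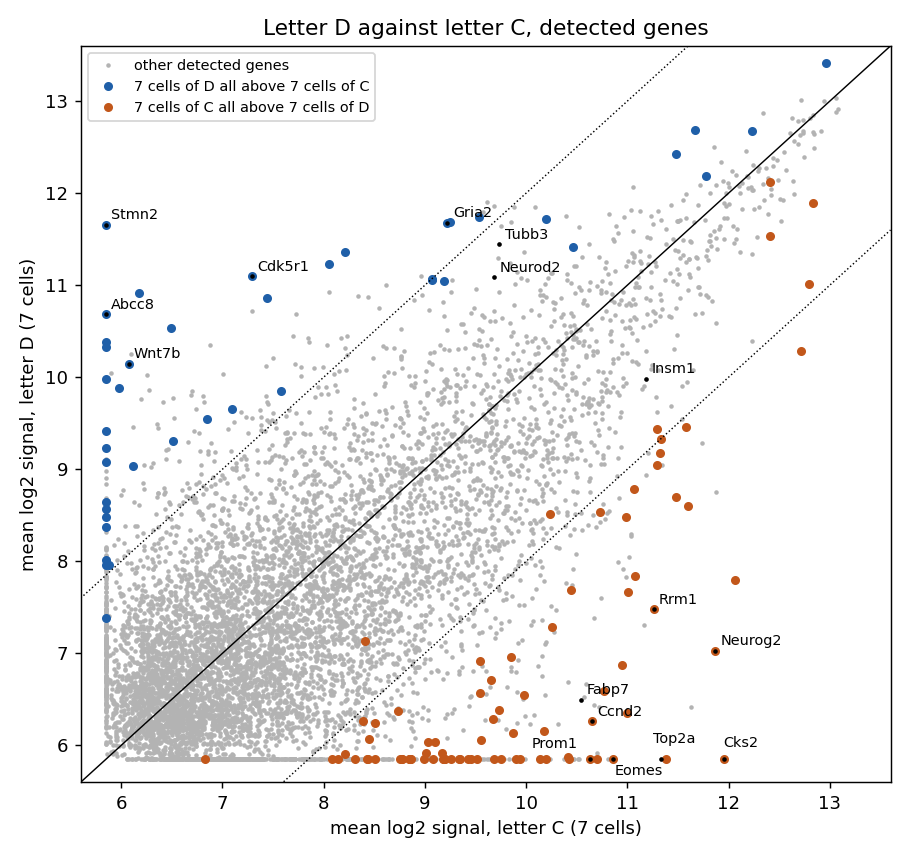
Mean log2 signal of each of the 7360 detected genes in the 7 letter C cells (x axis) and the 7 letter D cells (y axis); the solid line is equality, the dotted lines are a difference of 2 log2 units, and coloured points are the 42 genes (blue) and 86 genes (orange) whose cells do not overlap between the groups. Stmn2 sits at the floor in C and at 11.66 in D, and Cks2 at 11.95 in C and at the floor in D, while Insm1 lies between the diagonal and the lower dotted line.

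Progenitor and cell cycle genes were found in more C cells and neuron genes in more D cells. Of 26 intermediate progenitor markers, 14 to 21 were found per C cell and 8 to 11 per D cell, so the groups did not overlap. Apical progenitor markers numbered 11 to 16 of 29 per C cell and 2 to 5 per D cell. Neuron markers numbered 15 to 22 of 29 per C cell and 22 to 26 per D cell, touching at 22. Every C cell thus held neuron markers beside its progenitor genes. G2/M genes numbered 25 to 27 of 27 in 6 C cells and 0 to 3 per D cell. The intermediate progenitor, G2/M and neuron lists went in the direction of the names intermediate progenitor for C and newborn neuron for D. Not every marker did. C cell 7 lacked G2/M genes, and all C cells held apical progenitor and neuron markers. Neurod1 and Myt1 of the projection neuron list and the transporter gene Slc17a6 were lower in D, with differences of -2.76, -2.97 and -2.88. Whether expression helped to assign the letters is not given, so the markers are no independent check of the names.

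**Figure D2:**
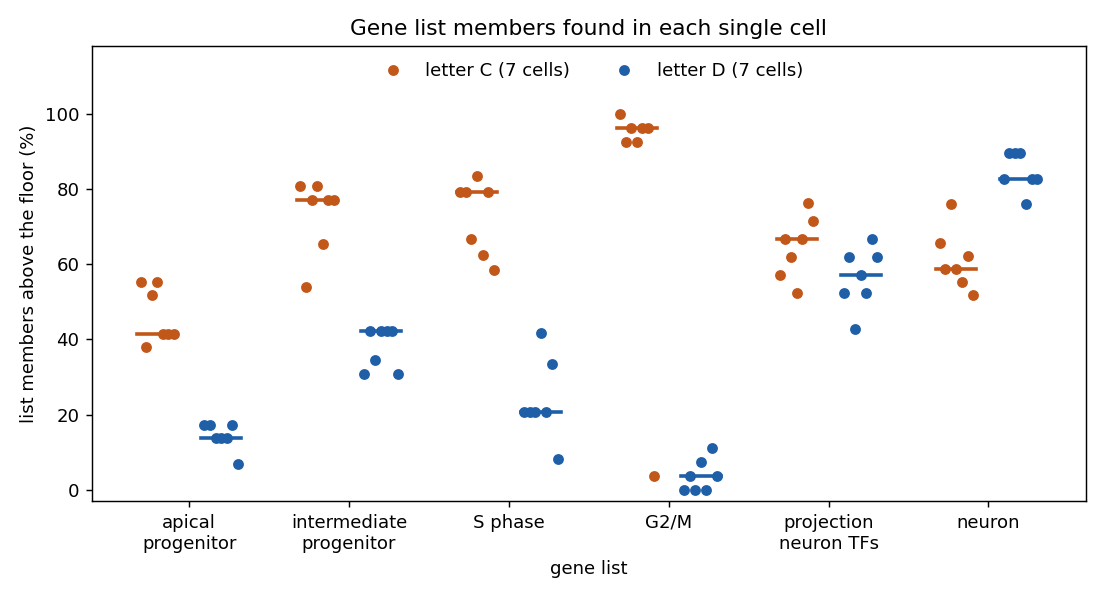
Percentage of the measured members of 6 gene lists that lay above the floor in each of the 7 letter C cells (orange points) and 7 letter D cells (blue points); horizontal bars are medians. The C and D cells do not overlap for the apical and intermediate progenitor and S phase lists, and the single C point near 0 in the G2/M list is C cell 7, with 1 of 27 genes.

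Eomes, the T-box factor that defines intermediate progenitors, was found in every C cell and in no D cell. Its log2 signal in C was 9.63 at the lowest, 11.03 at the median and 11.90 at the highest cell, and all 7 D cells were at the floor, at least 32.1-fold lower. Neurog2, the proneural basic helix-loop-helix factor that commits cortical progenitors to a neuronal fate, read 11.12, 11.97 and 12.41 in C. In D it was at the floor in 4 cells and read 7.94, 8.45 and 9.42 in the other 3 (D cells 4 to 6), a mean difference of -4.84. The D cells with remaining Neurog2 signal all lay below the lowest C cell. Gadd45g, a growth arrest gene switched on in cells about to become neurons, read 6.26, 10.47 and 11.09 in C and was at the floor in all D cells, at least 14.2-fold lower. The anti-proliferative gene Btg2 was found in 5 C cells, at up to 9.49, and in no D cell.

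Other genes of the list ranged from present in all D cells to absent from most. Insm1, a zinc-finger factor of basal progenitors and of early neurons, was found in all 14 cells and read 10.45, 11.15 and 12.03 in C against 8.53, 10.29 and 11.25 in D, a difference of -1.20 with overlapping groups. Hes6, an antagonist of Hes1, was found in 6 cells of each group with a difference of -2.28 (-1.95 without D cell 1 and -1.997 without D cell 7), and the Notch ligand Dll1 in 4 C and 2 D cells with a difference of -1.09. For Dll1 it ranged from -1.51 to -0.62 when single cells were left out and was -1.89 with D cells 6 and 7 alone. Tead2, a DNA-binding partner of the Hippo effectors Yap and Taz, read 9.91, 11.01 and 11.12 in C and was found in 2 D cells, at up to 8.90, a difference of -4.18. Tead2 was not particular to C: it was found in 7 of 7 cells with the title letter A (10.28 ± 1.06), 14 of 14 with B and 30 of 31 with X. In all, 10 of the 26 measured members were lower by 2 log2 units or more, against 5.34% of all detected genes. The groups did not overlap for 5 members, all lower in D, against 1.17% of all detected genes. Higher by the size rule was 1, the protocadherin Pcdh8 (4 D cells and 1 C cell, a difference of 2.03), against 2.38%. Pcdh8 is named outside the rule for named genes. The median over the 22 detected members was -1.87, and over all 26 it was -1.53.

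Apical progenitor genes still present in C were mostly gone in D. Pax6, a homeodomain factor of apical progenitors, read 6.53, 8.96 and 10.71 in C and was at the floor in all D cells, at least 7.62-fold lower. Its difference was -2.93, and -0.62 at the smallest under the alternative runs. Prom1, a membrane protein of apical protrusions and cilia, read 9.87, 10.50 and 11.58 in C and was at the floor in all D cells, at least 27.5-fold lower. Fabp7, the brain fatty acid binding protein of radial glia, read 8.64, 10.43 and 12.11 in C and was found in 2 D cells, at up to 9.01. These 3 genes were found in all 7 C cells, whereas Sox2, the neural stem cell factor, was found in 4 C cells and in no D cell. The Notch targets Hes1 and Hes5 were at the floor in all 14 cells. The intermediate filament gene Vim was found in 6 C and 2 D cells, a difference of -2.92, and Nes was found in 4 C cells and no D cell but only up to 7.34. Of the 29 measured members 6 were lower by 2 log2 units or more, against 5.34% of all detected genes, and none higher. The median was -1.87 over the 16 detected members and -0.70 over all 29.

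The G2/M and S phase lists had the largest median differences of the lists. The 27 measured G2/M genes act in the passage into and through mitosis. Of these, 26 were lower in D by 2 log2 units or more, against 5.34% of all detected genes, and none was higher. Cks2, a small subunit bound to cyclin-dependent kinases, read 9.41, 12.17 and 12.97 in C and was at the floor in all 7 D cells, at least 68.7-fold lower. Its probe set may match more than 1 transcript, as may those of Rrm2, Cdca8, Pbk, Pttg1, Mcm5, Hes6, Vim, Stmn3, Dab1, Jakmip1 and Reep1, so their values are less certain. Top2a, the topoisomerase that untangles replicated chromosomes, read 5.85, 12.32 and 12.53 in C, the lowest being C cell 7, and was at the floor in all D cells, a difference of -5.48. Mki67, the proliferation antigen, likewise read 5.85, 11.47 and 11.97 in C and was at the floor in D, a difference of -4.96. Ube2c, which feeds the anaphase-promoting complex, read 5.85, 12.56 and 13.23 in C and was found in 1 D cell at 9.84. Without C cell 7, the median over the list moved from -4.06 to -4.80, and the differences were -6.53 for Cks2, -6.39 for Top2a, -5.79 for Mki67 and -6.18 for Ube2c.

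Single D cells held few of these genes. Cenpa, the centromeric histone, was found in 2 D cells, Cdc20, an activator of the anaphase-promoting complex, in 1, and Racgap1, a cytokinesis protein, in 3. Pttg1, the securin, which is not on the list, was found in 1 D cell at 9.26. Cdk1 with its cyclin Ccna2, and Cdca8 of the chromosomal passenger complex, were each found in 6 C cells and no D cell, with differences of -4.67, -4.67 and -4.85. Without C cell 7 these were -5.45, -5.45 and -5.66. The mitotic kinase gene Pbk, also not on the list, was found in the same numbers of cells, with a difference of -4.85, and -5.66 without C cell 7. Cenpa, Cdc20 and Racgap1 are named outside the rule.

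S phase genes were lower in D but were not absent from it. Rrm2, the regulated subunit of ribonucleotide reductase, read 9.57, 11.77 and 12.27 in C and was at the floor in all D cells, at least 46.4-fold lower. Its partner Rrm1 read 9.93, 11.37 and 12.04 in C but was found in 4 D cells, at up to 9.48, with no overlap. Mcm5, part of the replicative helicase, was found in 7 C cells and 1 D cell, a difference of -4.08, and Gmnn, the licensing inhibitor geminin, in 6 C cells and no D cell, a difference of -3.83 (-4.46 without C cell 7). Pclaf, which binds the sliding clamp and is in neither list, was found in 6 C cells and 1 D cell, where it read 6.36. Between 2 and 10 of the 24 measured genes were found per D cell, against 14 to 20 per C cell. In all, 12 were lower by 2 log2 units or more, against 5.34% of all detected genes, and none was higher. The median was -2.91 over the 19 detected members and -2.03 over all 24. Without C cell 7 the median over the detected members was -2.70. The condensin subunit Smc2, likewise in neither list, read 9.73, 11.27 and 11.39 in C and was found in 2 D cells, at up to 7.89.

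Of the 16 detected G1 regulators 15 were lower in D, by widely different amounts. The median over all detected genes was also negative, at -0.18. Cyclin D2 (Ccnd2) read 9.04, 10.71 and 11.88 in C and was found in 1 D cell at 8.75, a difference of -4.38, while cyclin D1 (Ccnd1) was found in 1 C cell, at 7.36, and in no D cell. Cdk6, the kinase partner of the D cyclins, read 7.74, 10.78 and 12.16 in C and was at the floor in all D cells, at least 23.8-fold lower. Its relative Cdk4 was found in all 14 cells with a difference of -0.64 (named outside the rule). The pocket protein gene Rbl1 was found in 7 C cells and no D cell, at least 10.1-fold lower. Among the kinase inhibitors, Cdkn2d (p19) was lower in D, with a difference of -3.01, and Cdkn1c (p57) was found in 3 C and 4 D cells with a difference of 0.92, which ranged from 0.54 to 1.22 when single cells were left out. Of 19 measured genes of this list 7 were lower by the size rule, against 5.34% of all detected genes, and none was higher. The median over 16 detected members was -1.51 (-1.69 without C cell 7).

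Promoters of 3 of the genes lowest in D are shown as examples of short letter patterns, of which CCAAT occurred in most G2/M genes and TTTGAA in a minority. The CCAAT box is bound by the factor NF-Y, and the cell cycle homology region, with the core TTTGAA, by repressor complexes that silence such genes outside the cycle. The 120 bases before the start are given 5′ to 3′ along the gene's strand, from RefSeq on GRCm38.p6, with CCAAT or its reverse complement ATTGG, and TTTGAA or its reverse complement TTCAAA, in capitals. Top2a lies on the minus strand (chr11:99024190-99024309), Ube2c on the plus strand (chr2:164769809-164769928) and Cdk1 on the minus strand (chr10:69352913-69353032).
Top2a: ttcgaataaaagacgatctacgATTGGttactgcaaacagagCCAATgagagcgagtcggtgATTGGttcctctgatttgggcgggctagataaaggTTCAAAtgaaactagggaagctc
Ube2c: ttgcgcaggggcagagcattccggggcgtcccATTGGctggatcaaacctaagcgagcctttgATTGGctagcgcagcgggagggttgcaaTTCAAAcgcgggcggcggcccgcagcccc
Cdk1: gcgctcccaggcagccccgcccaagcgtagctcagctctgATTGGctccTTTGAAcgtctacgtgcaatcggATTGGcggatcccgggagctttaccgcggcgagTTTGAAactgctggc
Both patterns occur in each of the 3 windows because only windows that hold both were picked for display. Over the 250 bases before the start and on both strands, CCAAT was present in 21 of the 24 G2/M genes with a promoter in the table (87.5%), in 11 of 13 of the genes lowest in D (84.6%), in 12 of 21 S phase genes (57.1%) and in 34.5% of all 27025 promoters. Both CCAAT and TTTGAA were present in 7 of the 24 G2/M genes (29.2%), in 5 of the 13 genes lowest in D (38.5%) and in 5.73% of all promoters. TTTGAA, with or without CCAAT, was present in 7 of the 24 G2/M genes (29.2%), in 5 of the 13 genes lowest in D (38.5%) and in 16.3% of all promoters. Of the 10 genes highest in D that had a promoter there, 1 held CCAAT and 2 held TTTGAA (20.0%). The E-box CAGATG, a sequence that neurogenins and NeuroD factors can bind, was present in 2 of these 10 (20.0%) and in 14.5% of all promoters. A letter match is not a bound site, and binding was not measured.

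Neuronal genes made up the other side of the comparison. Stmn2, a stathmin of growing axons, had the largest difference among the 15 genes highest in D. It read 10.16, 11.81 and 12.76 in D, with all 7 C cells at the floor, at least 56.1-fold higher. Tubb3, the neuronal beta-tubulin, was found in 6 C and 7 D cells and read 5.85, 10.48 and 10.98 in C against 10.67, 11.59 and 11.79 in D, a difference of 1.71 that was 1.06 without C cell 7. Dcx, the microtubule protein doublecortin, read 8.07, 9.84 and 11.42 in C and 8.73, 11.33 and 11.56 in D, a difference of 0.67 that was -0.0070 with D cells 6 and 7 alone. Tubb3 and Dcx were thus present in C cells that also held Eomes, and Stmn2 was not. Gap43, a growth cone protein, read 5.85, 5.85 and 7.66 in C and 7.13, 9.16 and 10.80 in D, a difference of 2.67 with an overlap. Mapt, which encodes the axonal protein tau, was at the floor in all C cells and found in 4 D cells, at up to 10.40. Myt1l, a zinc-finger factor of neurons, read 8.74, 10.03 and 10.55 in D and was found in 1 C cell at 6.73, a difference of 3.91. Its relative Myt1 went the other way and read 8.87, 9.51 and 10.77 in C with 3 D cells above the floor, at up to 8.48. The stathmin Stmn3 was higher in D by 2.44, with no overlap, and by 1.87 without C cell 5.

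Of the 29 measured neuron markers 8 were higher in D by 2 log2 units or more, against 2.38% of all detected genes, and none was lower. The groups did not overlap for 5 of them, all higher in D, against 0.571% of all detected genes. The median was 1.71 over the 27 detected members and 1.52 over all 29. In 15 of the 29, at least 6 cells of both groups lay above the floor. The neurofilament gene Nefl was at the floor in all 14 cells and Nefm was found in 1 D cell. The RNA-binding Elavl2 was lower in D, with a difference of -1.51, while Elavl3 was higher, with one of 1.95. Nefl, Nefm, Elavl2 and Elavl3 are named outside the rule.

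**Figure D3:**
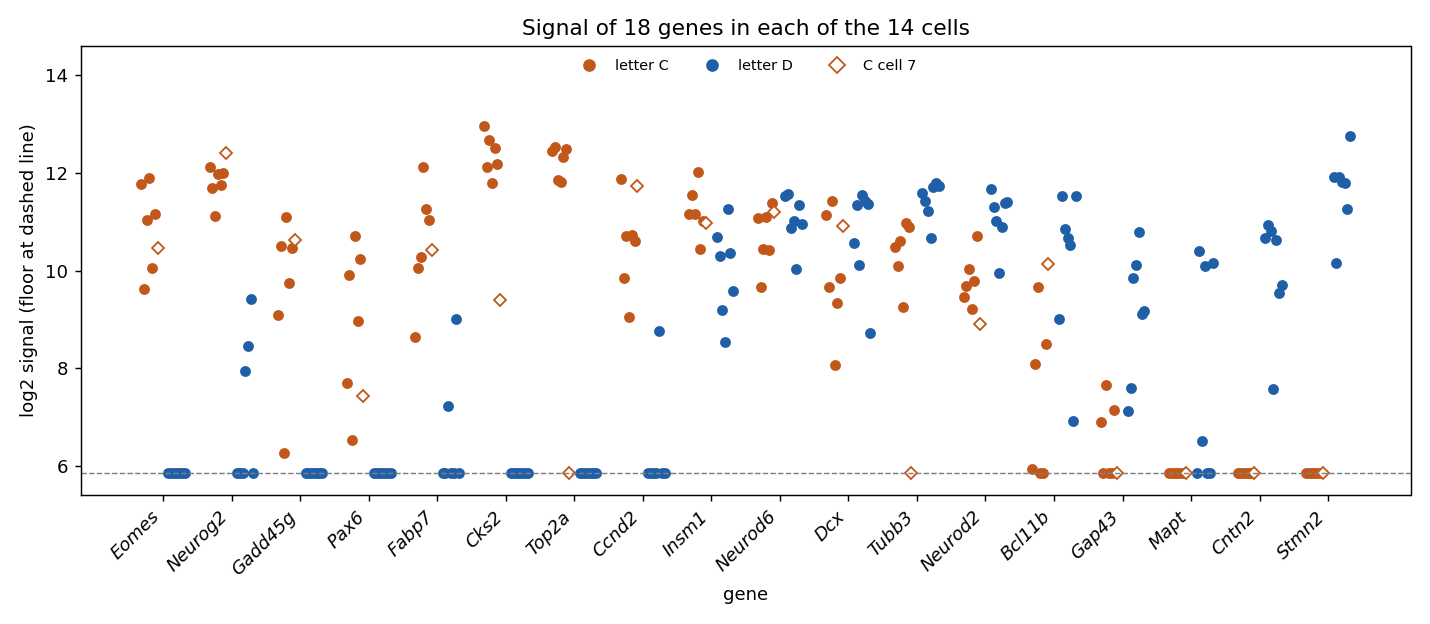
Log2 signal of single genes in each of the 7 letter C cells (orange points) and 7 letter D cells (blue points), with C cell 7 drawn as an open diamond; the dashed line is the floor at 5.85. Eomes and Pax6 lie at the floor in all 7 D cells and Stmn2 in all 7 C cells, whereas the groups overlap for Insm1, Dcx and Neurod6.

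Several transcription factors of cortical projection neurons were already on in the C cells. Neurod6, a factor of maturing glutamatergic neurons, read 9.67, 11.08 and 11.38 in C and 10.03, 11.02 and 11.56 in D, a difference of 0.29. Neurod2 read 8.91, 9.68 and 10.71 in C and 9.95, 11.31 and 11.66 in D, a difference of 1.40 with an overlap of single cells. Neurod1, the member that acts earliest after Neurog2, was found in 5 C cells at up to 10.87 and in 2 D cells, at 5.95 and 8.71, a difference of -2.76. The 3 NeuroD genes thus differed in direction. Tbr1, the T-box factor of early-born deep-layer neurons, was found in 5 C and 7 D cells, with a difference of 0.63 that ranged from 0.32 to 0.96 when single cells were left out. Bcl11b (Ctip2), a zinc-finger factor of subcerebral projection neurons, read 5.85, 8.09 and 10.12 in C and 6.91, 10.66 and 11.53 in D, a difference of 2.43, with D cell 6 the low one. It was 1.51 with D cells 6 and 7 alone, and Neurod1 then differed by -1.75. Sox5, which acts in deep-layer and subplate neurons, was found in 4 C and 7 D cells, a difference of 2.19 that was 1.94 without any one of C cells 2, 3 and 4. Of 21 measured genes 2 were higher and 2 (Neurod1 and Myt1) lower by the size rule, against 2.38% and 5.34% of all detected genes. The median was -0.30 over 17 detected members and -0.05 over all 21, against -0.18 over all detected genes. With all probe sets of a gene averaged, the median over the detected members was 0.010.

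Among 30 measured genes of axon growth and guidance, 5 were higher in D by the size rule and none was lower, against 2.38% and 5.34% of all detected genes. Cntn2 (TAG-1), an adhesion molecule of early cortical axons, read 7.57, 10.62 and 10.94 in D and was at the floor in all C cells, at least 17.5-fold higher. Chl1, an L1-family adhesion molecule, was found in 6 D cells and no C cell, and Shtn1 (shootin 1), which links axon outgrowth to actin flow, in 5 D cells and no C cell. Their mean differences were 2.67 and 3.13, with single D cells at the floor, and Chl1 differed by 4.81 with D cells 6 and 7 alone and by 1.81 with the other 5. The netrin receptor Dcc (named outside the rule) was lower in D, with a difference of -1.93, and the median over 22 detected members was 0.75.

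Genes of migration differed member by member. Cdk5r1 (p35), the activator of the neuronal kinase Cdk5, read 10.72, 11.12 and 11.37 in D against 5.85, 6.27 and 9.51 in C, a difference of 3.81 with the narrowest spread of D cells among the 15 genes highest in D. Dab1, the adaptor of the Reelin pathway, was found in 6 D cells and 1 C cell, a difference of 3.56 (2.29 with D cells 6 and 7 alone). It was also found in 7 of 7 cells with the title letter A (9.58 ± 0.94) and in 26 of 31 with X. Nde1, a dynein partner needed for progenitor divisions, was found in 7 C cells and no D cell, at least 11.2-fold lower. Rnd3, a small GTPase, was found in 6 C and 2 D cells, a difference of -2.73. The related GTPase gene Rnd2 was found in all 14 cells with a difference of -0.40 (named outside the rule), which was 0.17 with D cells 6 and 7 alone. The median over 20 detected members of 23 was 0.08.

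Synapse and channel genes were partly present. Syt4, a synaptotagmin, read 5.85, 5.85 and 9.60 in C and 8.93, 9.37 and 10.96 in D, a difference of 2.92. The vesicular glutamate transporter gene Slc17a6 went the other way, found in 6 C cells and 1 D cell with a difference of -2.88. Slc17a7, Dlg4 and Shank1 (named outside the rule) were at the floor in all 14 cells. Gria2, an AMPA receptor subunit, read 5.85, 9.47 and 10.91 in C and 11.21, 11.78 and 12.14 in D, a difference of 2.46 that was 1.90 without C cell 7. Gria2 was also found in 7 of 7 cells with the title letter A (9.37 ± 0.92) and in 30 of 31 with X. It was the single member past the size rule among 19 measured channel and receptor genes, against 2.38% of all detected genes higher by it. Of 20 synapse genes 1 was higher and 1 lower, against 2.38% and 5.34% of all detected genes.

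Several subunits of the BAF chromatin remodelling complex, of which some are known to be exchanged between progenitors and neurons, differed between the groups, while the list as a whole did not lean one way. Actl6b (BAF53b), a neuronal subunit, read 5.85, 5.85 and 7.68 in C and 8.32, 9.25 and 10.33 in D, a difference of 2.80 with no overlap. Its progenitor counterpart Actl6a (BAF53a, named outside the rule) was found in 7 C and 6 D cells, a difference of -1.97. Ss18, the progenitor member of another pair, read 8.32, 9.80 and 10.999 in C and was found in 4 D cells, at up to 8.88, a difference of -2.52. Ss18l1 (CREST), its neuronal counterpart, read 5.85, 6.74 and 8.51 in C and 5.85, 10.04 and 10.46 in D, a difference of 2.34. Smarcd3 (BAF60c) was higher in D by 2.70, though 3 C cells also held it, at up to 10.32, and all 7 A cells did, at 10.77 ± 0.69 against 10.13 ± 1.93 in D. Of the 18 measured genes of the list 3 were higher and 2 lower by the size rule, against 2.38% and 5.34% of all detected genes. The detected members split into 8 positive and 8 negative differences with a median of -0.11, which was 0.16 under quantile normalization. The fifth gene past the rule was Smarcc1, with a difference of -2.08. With D cells 6 and 7 alone, the differences of Actl6a, Ss18 and Smarcc1 were -0.22, -1.38 and -0.86, against -2.67, -2.97 and -2.57 with the D cells of title number 18 alone. Rest, the repressor of neuronal genes, was found in 1 D cell and no C cell. Smarcc1 and Rest are named outside the rule.

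The RNA-binding list held 2 genes past the size rule, both lower in D. Ptbp1, a splicing repressor known to fall as neurons form, was found in 6 C and 3 D cells, a difference of -2.43, and Elavl1 (HuR) in 6 C cells and 1 D cell, a difference of -2.54 (-1.33 with D cells 6 and 7 alone). They were 2 of 18 measured genes, against 5.34% of all detected genes lower by that rule, and none was higher. Ptbp2, the neuronal relative of Ptbp1 (named outside the rule), was found in all 14 cells with a difference of -1.64.

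The fringe genes, which modify Notch receptors, differed in opposite directions. Mfng read 8.28, 9.84 and 11.54 in C and was found in 2 D cells, at up to 8.69, a difference of -3.18. Rfng read 8.04, 9.73 and 10.08 in D and was found in 3 C cells, at up to 9.43, a difference of 2.39. The third family member, Lfng, was at the floor in all 14 cells (named outside the rule). No other of the 20 measured Notch pathway genes passed the size rule, so that 1 of 20 was higher and 1 lower, against 2.38% and 5.34% of all detected genes. The median over 13 detected members was -0.49, from -0.80 to -0.21 when single cells were left out, and 0 over all 20.

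Genes with less familiar roles in these cells were among the 15 highest in D. Abcc8, the sulfonylurea receptor of potassium channels, read 9.28, 10.85 and 11.78 in D and was at the floor in all C cells, at least 28.5-fold higher. Jph4, a junctophilin that ties the endoplasmic reticulum to the plasma membrane, read 9.70, 10.29 and 11.22 in D and was at the floor in C, at least 22.2-fold higher. Clmp, an adhesion molecule, read 7.06, 10.94 and 11.68 in D with C at the floor, at least 23.1-fold higher. Its difference was 4.53, and 3.19 with D cells 6 and 7 alone. Both Dpy19l1, a C-mannosyltransferase homologue, and Wnt7b, a secreted Wnt ligand, had all D cells above all C cells, with differences of 4.74 and 4.08. So did Nuak1, a kinase that acts in axon branching, with a difference of 4.04. Dpy19l1 was not confined to D: it was found in 6 of 7 cells with the title letter A (9.02 ± 1.67), 12 of 14 with B and 29 of 31 with X. Nfasc (neurofascin), with a difference of 3.58, overlapped by 1 pair of cells, since C reached 8.30 and D began at 8.17. Jakmip1, Reep1 and Tub were found in 6 D cells each, with differences of 4.15, 3.78 and 3.57. With D cells 6 and 7 alone, Reep1 differed by 2.03 and Tub by 4.82. Ccl27a, with a difference of 4.15, was read from a probe set that may match other transcripts, and that gene has near-identical copies in the mouse genome, so its value is uncertain as well.

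Several further genes had no overlap between the groups and are named after their values were seen. Among the 11 of the 42 genes higher in D by less than 2 log2 units, Nfib, a nuclear factor I gene, read 12.43 ± 0.19 in D and 11.48 ± 0.29 in C, and Sox11 read 12.19 ± 0.08 and 11.77 ± 0.24 (mean ± SD over 7 cells). The actin-sequestering thymosin genes Tmsb10 and Tmsb4x were higher in D by 0.45 each. These 4 genes stayed higher in D when cells were scaled to their trimmed mean or quantile normalized, though the Sox11 cells then overlapped under the first. On the C side, Gli2 and Gli3, effectors of Hedgehog signalling, were found in 6 and 7 C cells and at the floor in all D cells, with differences of -3.23 and -2.997, and so were the transcription factor genes Sox6 (-3.90) and Dmrta2 (-2.92). Where a C cell also lay at the floor, as for Gli2, the order of the groups rests on values under the floor, where order means little. The nuclear receptor gene Nr2f1 (COUP-TFI) was found in all 14 cells with a difference of -2.28. Hmgb2, a chromatin protein abundant in dividing cells, differed by -4.55 and was found in 1 D cell at 5.98.

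The ribosomal protein, glycolysis and housekeeping lists gave small median differences. The 12 ribosomal protein genes had a median of -0.13, the 12 detected glycolysis genes one of 0.09 and the 10 detected housekeeping genes one of -0.16, and no member of the 3 lists passed 2 log2 units. With each cell scaled to its trimmed mean the ribosomal median turned to 0.06 and the housekeeping median to 0.05. Gapdh, read from the array's own control probe set for it, was lower in D, with a difference of -0.87 and no overlap, while Actb was higher by 1.01. Both are named outside the rule. Of the immediate early and stress genes 6 of 18 were detected, with none past 2 log2 units and a median of 0.18 (-0.10 with no floor), and Fos and Egr1 were at the floor in all 14 cells. Of 14 measured p53 response and apoptosis genes 7 were detected, with a median of -0.69 that ranged from -1.04 to -0.44 when single cells were left out and was -0.17 with all probe sets averaged, and Cdkn1a was at the floor in every cell. Of 15 measured apical junction and polarity genes Prom1 alone passed the size rule, against 5.34% of all detected genes lower by it. The median over 12 detected members was -0.45.

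**Figure D4:**
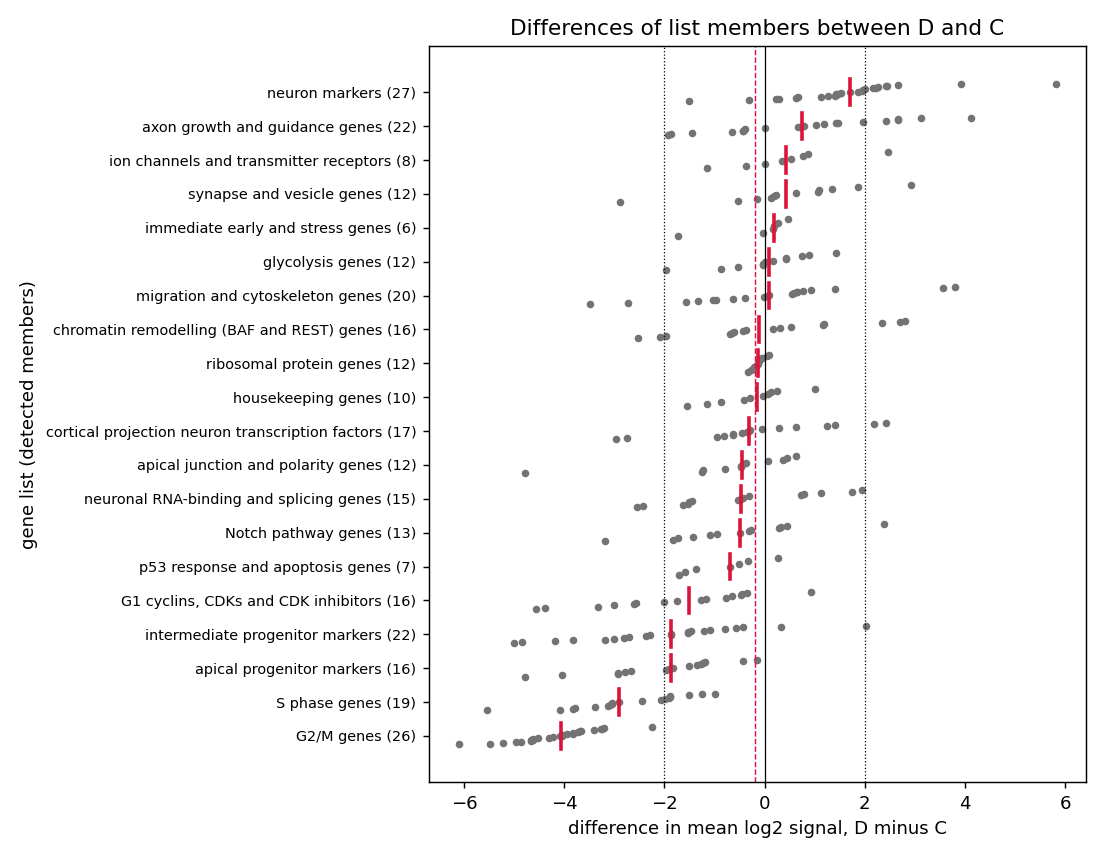
Differences in mean log2 signal, D minus C, of the detected members of each gene list (points), with the list medians as red bars and the number of detected members in brackets; the dotted lines mark 2 log2 units in either direction and the dashed line the median of all detected genes, -0.18. The G2/M genes lie furthest to the negative side, with a median of -4.06, the neuron markers lie on the positive side, with a median of 1.71, and the ribosomal protein genes lie near 0.

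The same genes were read in the other cells of the series, 7 with the letter A, 14 with B, 31 with X and 3 cortical plate cells with E, as levels only. Eomes was found in 13 of 14 B cells (10.47 ± 1.59), in 7 of 7 C cells (10.86 ± 0.85), in 8 of 31 X cells and in no A, D or E cell. Stmn2 was found in 1 of 7 A cells, in no B or C cell, in 6 of 31 X cells, in 7 of 7 D cells (11.66 ± 0.80) and in 3 of 3 E cells (11.95 ± 0.42), so the D and E levels did not differ beyond their spread. Bcl11b was found in 0 of 7 A, 2 of 14 B, 5 of 7 C, 7 of 7 D and 3 of 3 E cells. Mapt was found in 4 of 7 D cells and 3 of 3 E cells, where it read 9.92 ± 0.81. Insm1 was found in all B, C and D cells and in 2 of 3 E cells, where it was 6.50 ± 0.64, against 9.99 ± 0.93 in D. Pax6 read 11.02 ± 0.59 in A, 9.60 ± 1.45 in B, 8.78 ± 1.59 in C and the floor in D, and B and C did not differ beyond their spread. G2/M genes were found at medians of 25 of 27 in A, 25.5 in B, 26 in C, 1 in D and 1 in E.

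**Figure D5:**
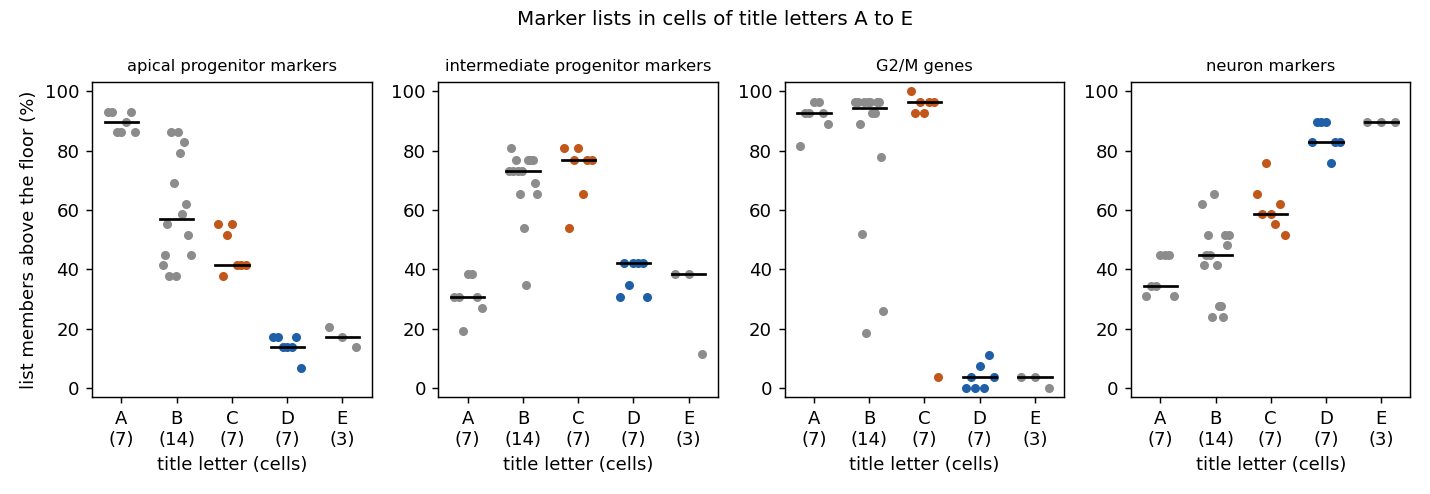
Percentage of the measured members of 4 marker lists above the floor in each cell of the title letters A to E (number of cells in brackets; C orange, D blue, others grey); horizontal bars are medians. In the G2/M panel the medians are 26 of 27 genes in C and 25.5 in B, against 1 in both D and E.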

How the data were processed

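Each of the 69 cells was amplified and measured on 1 Affymetrix array, and the number of cells limits the precision. The authors deposited linear intensities, and the submitters' processing notes name MAS5 with no version or scaling target. From them log2 intensities were computed here, after values under the floor were set to it. Of 45101 probe sets, 34958 list 1 gene, 932 several and 9211 none; the single-gene probe set with the highest mean log2 over the 69 cells stood for each of 18194 genes. Genes above the floor in at least 3 of the 14 cells were detected (7360). Symbols came from the platform annotation, of which 34754 were matched to RefSeq GRCm38.p6 with 0 changed. Promoters came from the same release.

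No p-value was computed, because no label names an animal. Replicate numbers only name cells. No doublet caller was run, since cells were picked by hand. The named genes are the 15 largest differences in each direction (at least 6 of 7 cells of the higher group above the floor, its median above the highest cell of the other), 29 markers, and up to 4 members of each list that differ by at least 2 log2 units. The comparison, the 27 gene lists and the rules were chosen with earlier results of these data known. Of 483 listed genes 36 were not analysed here.

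Alternatives were a floor from the 207 TrpnX control values (an intensity of 6.26, or 2.65 on the log2 scale) and no floor. Others were trimmed-mean and quantile scaling, the mean of all probe sets and no filter on detected genes. The D cells with and without title number 18 were also run, as was leaving out each cell. Reading separation on floored values was chosen after seeing the data. Python 3.11.15 with numpy 2.4.6, pandas 2.3.3, scipy 1.17.1 and matplotlib 3.10.9 was used, and the calculation was tested on simulated data.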

Additional observations from a re-analysis of the deposited data

Results flagged for a closer look

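In 33 of 124 groups of 7 cells that were checked, 1 cell lay far from the rest (Dixon's criterion for a single far value). Chance gives this in about 1 in 20 groups, and genes that sit at the floor in most cells meet it easily.

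C cell 7 was the lowest C cell for the mean over the G2/M genes, at 5.99. It was at the floor, 5.85, for Top2a, Ube2c, Mki67, Cdca8, Pbk, Pclaf, Ccna2, Cdk1, Pttg1 and Tubb3, and lowest for Cks2 at 9.41 and Smc2 at 9.73. Hes6 was at 5.85 in C cell 5 and Gadd45g at 6.26 in C cell 3. The mean over the neuron markers was 8.90 in the highest C cell. Genes at the floor in most C cells had 1 high cell: Dpy19l1 at 8.12, Ccl27a at 7.59, Reep1 at 8.67 and Ccnd1 at 7.36 in C cell 1, Jakmip1 at 6.22 and Myt1l at 6.73 in C cell 3, and Nfasc at 8.30 in C cell 7.

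In D, the single low cells were Clmp at 7.06 in D cell 6, Cntn2 at 7.57 in D cell 4, and the floor value 5.85 for Ccl27a in D cell 5, Reep1 in D cell 6 and Tub in D cell 2. The single high cells were Ube2c at 9.84 in D cell 4, Pclaf at 6.36 and Ccnd2 at 8.75 in D cell 5, Pttg1 at 9.26 in D cell 6 and Neurod1 at 8.71 in D cell 7.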

How the results depend on the processing

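Among the 80 named genes and the list medians, no difference of at least 2 log2 units changed sign under any alternative run, but counts and sizes moved. Some of these differences fell short of 2 log2 units under an alternative, to -0.62 for Pax6, -0.99 for Smc2 and -0.83 for Rbl1, among others. Rrm1 fell to -1.26, Elavl1 to -0.49 and Chl1 to 0.78. Most other genes were not followed one by one. With the TrpnX floor, 695 genes were higher in D and 1329 lower, and the list medians were -3.60 (apical progenitor), -2.61 (intermediate progenitor), 2.06 (neuron), -6.57 (G2/M) and -3.86 (S phase). With no floor, 893 were higher and 1721 lower, and the same medians were -4.33, -3.37, 2.06, -7.72 and -5.39. With all probe sets of a gene averaged, 74 were higher and 191 lower, and the medians were -1.07, -1.35, 0.91, -2.59 and -2.03, with 0.010 for projection neuron factors. With no filter, the apical median was -0.70 and the S phase median -2.03. Quantile normalization gave 67 genes with D cells above all C cells, and it moved the median of all detected genes from -0.18 to -0.02 (trimmed-mean scaling to -0.07), so small differences are read relative to that. D cells without title number 18 gave 440 genes higher, and 370 and 304 genes with no overlap, fewer cells being compared. Those with it gave 133 genes with C cells above all D cells.

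Leaving out each cell in turn gave 167 to 208 genes higher and 381 to 466 lower, and 41 to 53 and 76 to 170 with no overlap, the last without C cell 7. The medians ranged from -2.21 to -1.59 (apical), -2.09 to -1.69 (intermediate), 1.54 to 1.86 (neuron), -0.42 to -0.18 (projection neuron factors), -4.80 to -3.89 (G2/M) and -3.05 to -2.56 (S phase). Reading separation on floored values gave 36 and 68. No paired analysis was possible because no test was run and replicate numbers were given in accession order. Signals near the floor carry little information, and a difference is a bound only where the floored cells all lie in 1 group.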
